A study of Mus musculus with 9 samples.

Results

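The forkhead transcription factors Foxo1, Foxo3 and Foxo4 and 7 of their known target genes were followed in the mouse ovary at 3 ages. The targets were the sestrin genes Sesn1, Sesn2 and Sesn3, the cell cycle inhibitor Cdkn1b, the repressor Bcl6, the insulin receptor adaptor Irs2 and the growth arrest gene Gadd45a. These 10 genes were taken by symbol from gene tables of 55487 rows, and every symbol matched. RNA came from C57BL/6 ovaries with the genotype given as Oocyte-specific PIK3CA* gene knockin, at postnatal day 8, day 50 and day 65, with 3 libraries per age. All 9 libraries carried that genotype, so age, growth of the ovary and whatever the knocked-in gene does over time cannot be told apart. The promoter that drives expression in the oocyte, the meaning of the asterisk and the number of animals per library are not given in the labels, and the series describes the material as tumor samples. No label ties the 3 libraries of an age to different mice, so each p-value speaks only of the variation among the libraries at hand, part or all of which may be technical.

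PIK3CA encodes the catalytic subunit p110 alpha of phosphoinositide 3-kinase, which raises the lipid signal that activates the kinase AKT. AKT phosphorylates FOXO proteins, which are then bound by 14-3-3 proteins and held outside the nucleus, so that active signalling lowers transcription of FOXO targets. In the mouse ovary FOXO3 in the oocyte keeps primordial follicles dormant, and FOXO1 is known as an abundant factor of granulosa cells in growing follicles. RNA levels report neither the phosphorylation nor the location of the proteins.

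FOXO proteins bind a short core, GTAAACA, and an insulin response element, CAAAACAA, and both were searched on both strands of RefSeq promoter windows (GRCm38.p6, 250 bases before to 50 bases after a gene's start). Windows were given for 9 of the 10 genes, 11 windows in all, with none for Foxo4, and no window of these genes held both motifs. The core was present in 1 of the 11 windows, that of Sesn1, against 3.65% of all 32851 windows, and in 4 of 32 windows of other FOXO target genes (Bbc3, Bcl2l11, Trim63 and Txnip). The insulin response element was present in 1 of the 11, that of Irs2, against 2.51% of all windows, and in 2 of 32 windows of the other targets (Ccng2 and Igfbp1). A match is a match of letters only, and a window without one says nothing about binding elsewhere. The 2 matches are shown because they are the only ones among the 11 windows, with the motif in capitals as it reads on the gene's strand, 5′ to 3′; both are the reverse complement of the letters above. The Sesn1 sequence lies at chr10:41810585-41810613 on the plus strand, with the motif starting 22 bases after the start. The Irs2 sequence covers chr8:11008930-11009179 on the minus strand, all 250 bases before the RefSeq start, with the motif starting 38 bases before it (position -38). That RefSeq start lies upstream of the Irs2 span of the gene tables (chr8:10984681-11008458), so the position is not counted from that span.
Sesn1: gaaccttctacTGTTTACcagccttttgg
Irs2: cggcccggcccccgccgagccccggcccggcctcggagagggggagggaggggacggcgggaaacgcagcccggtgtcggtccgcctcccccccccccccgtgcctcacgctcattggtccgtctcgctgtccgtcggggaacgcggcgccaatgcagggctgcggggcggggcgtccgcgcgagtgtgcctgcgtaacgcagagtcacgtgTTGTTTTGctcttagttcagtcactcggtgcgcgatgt

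The libraries held between 14116908 and 18868831 expected counts each, the reads that RSEM assigned to genes, and between 21305 and 26084 genes above 0. A library of day 8, replicate 1, stood apart from the other day 8 libraries in 3 measures of composition and was close to the day 65 libraries in them. Ribosomal protein genes took 11.6% of its reads, a share of 10.1% to 13.1% in the day 65 libraries and of 3.12% to 5.97% in the remaining 5. Mitochondrial genes took 4.53%, against 4.59% to 5.13% and 2.03% to 3.29%. Its mean effective transcript length, weighted by TPM, was 1203 bases, against 1071 to 1195 and 1564 to 1750 bases. Each comparison below was therefore also computed without that library and with the trend of fold change on transcript length and GC content removed. Pik3ca itself, whose row cannot separate the knocked-in copy from the native gene here, was at 75.9 ± 17.4, 125 ± 10.8 and 72.9 ± 7.44 CPM (SD, n = 3) at the 3 ages.

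Levels are given as CPM, library-scaled counts after TMM normalization, and fold changes as log2 with their standard error (SE). Tests used edgeR's quasi-likelihood test on all 17747 genes that passed a filter on low counts, with Benjamini-Hochberg adjusted p under 0.05 as the call. All 10 genes passed the filter, and their expected counts ran from 64 for Bcl6 to 21628 for Foxo1. Between day 8 and day 50, 6 of the 10 changed, 4 higher and 2 lower, where 40.8% of all genes tested were called (19.5% higher, 21.4% lower). Between day 50 and day 65, 7 changed, 2 higher and 5 lower, against 55.9% of all genes (27.5% higher, 28.4% lower). From day 8 to day 65, 8 changed, 3 higher and 5 lower, against 62.3% (29.7% higher, 32.6% lower). The 3 libraries of one age did not overlap those of the other for 8, 9 and 8 of the 10 genes in these comparisons, beside 57.7%, 68% and 65.7% of all genes tested. The median log2 fold changes of the 10 genes were 0.35, -0.42 and -0.29, where those of all genes were -0.04, -0.06 and -0.05. Over the 3 comparisons the largest rise was that of Foxo1 from day 8 to day 50, and the largest fall that of Sesn3 from day 50 to day 65.

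**Figure D1:**
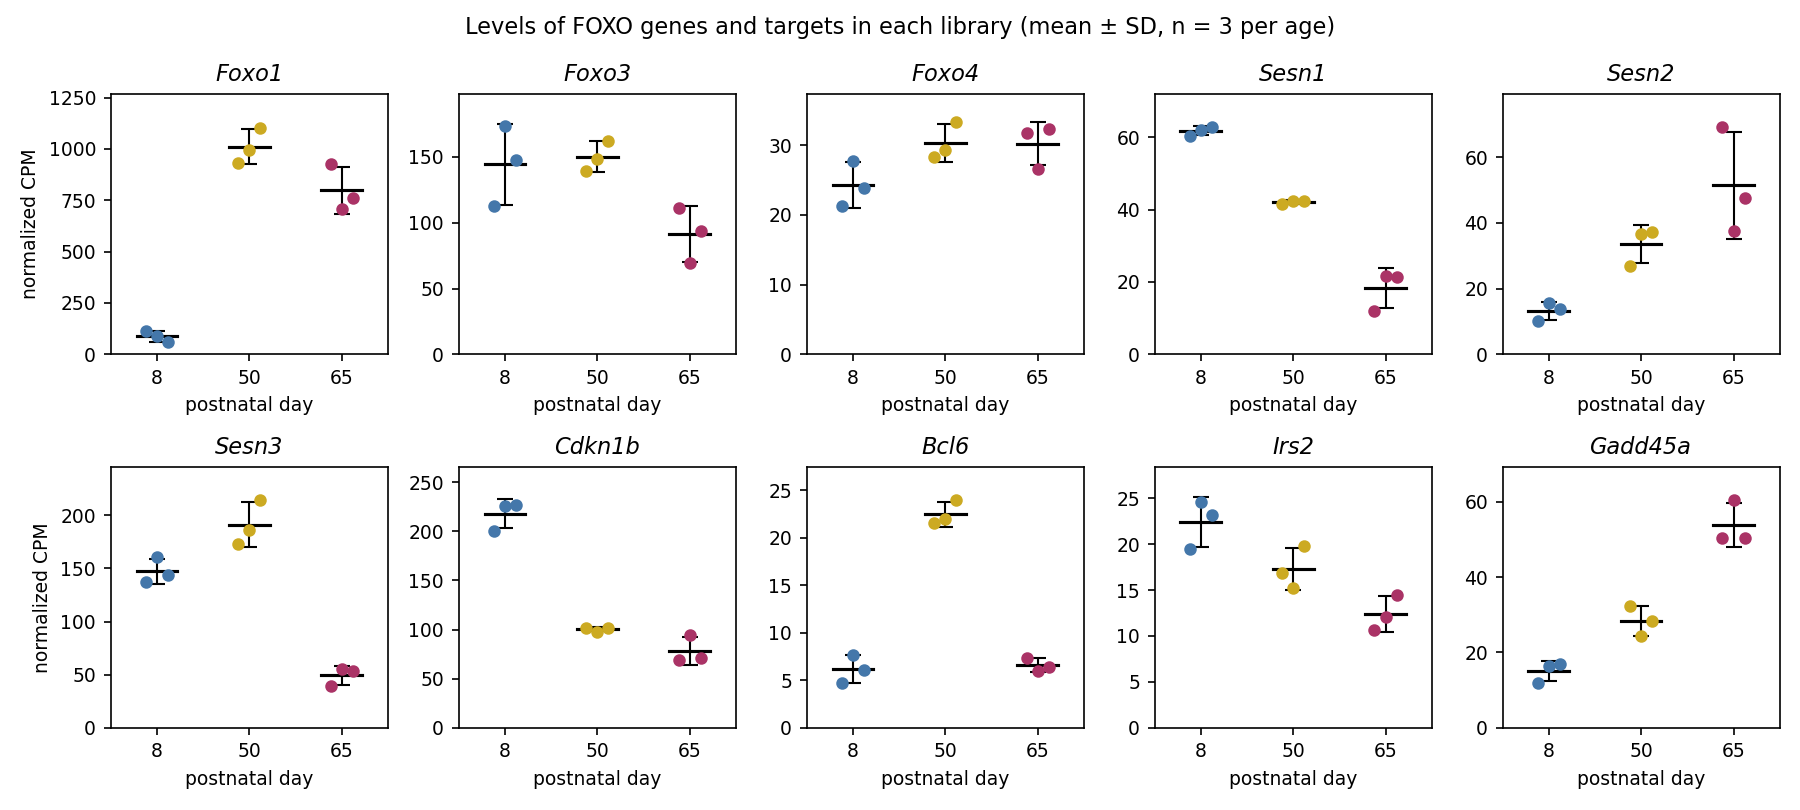
Normalized CPM of each gene (vertical axis, linear, from 0) in each library, by postnatal day (horizontal axis); points are libraries, replicates 1 to 3 from left to right, the long bar is the mean and the whiskers 1 SD (n = 3). Foxo1 rises from 61.4 to 114 CPM at day 8 to 933 to 1102 CPM at day 50, Bcl6 is high only at day 50, and Sesn1 and Sesn3 are lowest at day 65.

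Among the FOXO factors, Foxo1 moved most. Foxo1 (chr3:52268336-52353221, plus strand, GRCm38, protein coding) was at 114, 89.7 and 61.4 CPM in the day 8 libraries, at 933, 995 and 1102 CPM at day 50, and at 926, 705 and 761 CPM at day 65. Every library of day 50 and day 65 lay above every day 8 library. The means were 88.3 ± 26.2, 1010 ± 85.8 and 798 ± 115 CPM (SD, n = 3). Foxo1 was 11.4-fold higher at day 50 than at day 8, a log2 fold change of 3.52 (SE 0.251; edgeR adjusted p = 5.16e-06), and 9.04-fold higher at day 65 (3.18, SE 0.248; adjusted p = 5.15e-06). The day 65 value was 2.49 on log2(TPM + 1) and 3.99 with the length and GC trend removed, both called. Over all alternatives it ran from 2.49 to 4.02. From day 50 to day 65 its log2 fold change was -0.34 (SE 0.228; adjusted p = 0.223), which did not pass, and the value depended on scaling. It was -1.16 on log2(TPM + 1) (limma adjusted p = 0.000654), -0.61 with library size as the only scaling (adjusted p = 0.0217) and 0.48 with the length and GC trend removed. A gene on the opposite strand, Gm20402, covers 7.78% of the exon bases of Foxo1, and no source used here gives the strand setting of the counting.

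Markers of several cell types rose over the interval in which Foxo1 rose, those of granulosa cells among them. The summed level of the 10 granulosa markers was 959 to 1741 CPM at day 8, 13310 to 15595 CPM at day 50 and 6731 to 7848 CPM at day 65. From day 8 to day 50, 9 of the 10 were higher and none lower. By day 65, 1 was higher and 6 lower than at day 50. Over the same interval 6 of 6 theca markers (summed 164 to 508 CPM at day 8 and 3182 to 3734 CPM at day 50), 4 of 6 macrophage markers (47.4 to 105 and 290 to 390 CPM), 3 of 6 endothelial markers (206 to 284 and 271 to 335 CPM), 2 of 4 smooth muscle markers (375 to 889 and 1692 to 2321 CPM) and 2 of 4 adipocyte markers (3.20 to 15.9 and 15.2 to 56.0 CPM) were higher. The part of these cells in the change of Foxo1 was not tested. In RNA from whole tissue, a change in the share of a cell type and a change in RNA per cell cannot be told apart, here and for each gene below.

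Foxo3 did not follow Foxo1. Foxo3 (chr10:42181841-42276755, minus strand) was at 112, 173 and 147 CPM at day 8, at 139, 149 and 162 CPM at day 50, and at 111, 69.3 and 93.8 CPM at day 65. The day 8 and day 50 libraries overlapped, and all day 65 libraries lay below them. From day 8 to day 50 the log2 fold change was 0.06 (SE 0.199; adjusted p = 0.851), with a sign that turned to -0.23 once the length and GC trend was removed. Foxo3 was 1.64-fold lower at day 65 than at day 50 (-0.71, SE 0.201; adjusted p = 0.012) and 1.58-fold lower than at day 8 (-0.66, SE 0.201; adjusted p = 0.0152). On log2(TPM + 1) both falls were larger (-1.46 and -1.26). The call against day 50 was lost with the length and GC trend removed (-0.25, adjusted p = 0.129). The call against day 8 was lost without day 8 replicate 2 (adjusted p = 0.071), without day 8 replicate 3 (0.0547) or without day 65 replicate 2 (0.0553). Foxo3 is known in the mouse for its role in the oocyte. The summed level of 10 oocyte markers was 2222 to 2673 CPM at day 8, 69.2 to 104 CPM at day 50 and 38.5 to 86.6 CPM at day 65, and 8 of the 10 were lower at day 50 than at day 8, none higher. From day 50 to day 65, 3 of these markers were lower and 1 higher, and all 10 were lower at day 65 than at day 8. From day 50 to day 65, 6 of 10 granulosa, 5 of 6 theca and 4 of 5 surface epithelium markers were lower too. In the same comparison 1 granulosa, 4 of 6 fibroblast and 5 of 5 erythroid markers were higher. The part of the oocytes and of these other cells in the level of Foxo3 was not tested.

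Foxo4 was the least variable of the 3 factors across ages. Foxo4 (chrX:101254528-101260873, plus strand) was at 21.3, 27.8 and 23.8 CPM at day 8, at 28.2, 29.3 and 33.4 CPM at day 50, and at 31.7, 26.6 and 32.3 CPM at day 65. The log2 fold changes were 0.32 (SE 0.148; adjusted p = 0.108) from day 8 to day 50, -0.01 (SE 0.147; 0.977) from day 50 to day 65, a sign that several alternatives turned, and 0.31 (SE 0.148; 0.0885) from day 8 to day 65. None passed, which does not show that the level stayed the same. On log2(TPM + 1) the fold change from day 50 to day 65 was -0.80 (limma adjusted p = 0.0253).

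Because TPM divides by transcript length, it allows the 3 factors to be set beside each other within a library. Foxo1 made up 35.3%, 22.9% and 18.9% of their summed TPM in the day 8 libraries, 78.2%, 78.5% and 78.3% at day 50, and 79.7%, 81.0% and 78.4% at day 65. Foxo3 was the most abundant of the 3 in each day 8 library, at 54.6% ± 7.37 (SD, n = 3) of the sum, and fell behind Foxo1 in each later library, at 14.95% ± 0.146 and 11.9% ± 1.20. Foxo4 took 19.7% ± 1.21, 6.71% ± 0.125 and 8.45% ± 0.833. The summed TPM of the 3 genes ran from 43.1 to 86.8 at day 8, from 247 to 298 at day 50 and from 109 to 125 at day 65. The depth behind a TPM value is not kept in its unit, and the shares are given with no test.

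**Figure D2:**
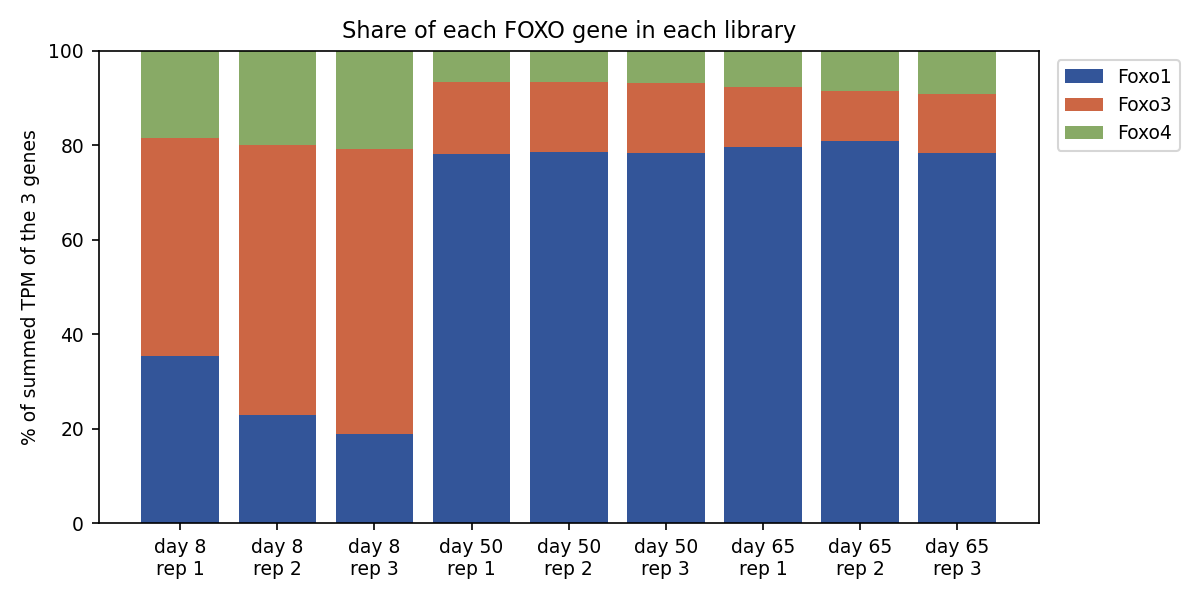
Share of Foxo1, Foxo3 and Foxo4 in their summed TPM (vertical axis, percent, from 0) in each of the 9 libraries (horizontal axis). Foxo3 is the largest segment in the 3 day 8 libraries, and Foxo1 takes 78.2% to 81.0% in the other 6.

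The remaining FOXO factor, Foxo6, which is chiefly known from brain, was outside the 10 genes. It was at 65.9 ± 23.0, 55.9 ± 8.61 and 13.4 ± 8.20 CPM (SD, n = 3). Its level did not pass the test from day 8 to day 50 (log2 fold change -0.24, SE 0.397; adjusted p = 0.664). Its day 65 level was below that of day 50 (-2.05, SE 0.420; adjusted p = 0.00244) and that of day 8 (-2.29, SE 0.423; adjusted p = 0.001).

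Among 10325 genes of at least 10 CPM on average, genes whose log2 CPM followed each factor most closely over the 9 libraries were named by Pearson's r, as a description with no test. The libraries share 3 age groups, so r mainly reflects the age means. For Foxo1 they were Ano8 (r = 0.996), Ss18 (0.995), Cebpa (0.995) and Alpk3 (0.994). Cebpa encodes a transcription factor of differentiating cells. For Foxo3 they were Zfp507 (0.977), R3hdm2 (0.976), Pxn (0.973), Zfp316 (0.972) and Mroh1 (0.971). For Foxo4 they were Sec31a (0.976), Smc1a (0.973), Rhot2 (0.971), Eif4ebp2 (0.967) and Cnot3 (0.965).

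The sestrins, stress-induced proteins that restrain mTORC1 by binding the GATOR2 complex and by activating the kinase AMPK, moved apart from each other. Sesn1 fell at each step, Sesn2 was higher at each later age (lower at day 65 than at day 50 on log2(TPM + 1)), and Sesn3 dropped between day 50 and day 65. Sesn1 (chr10:41810574-41908424, plus strand, a span that differs from that in GENCODE M21) was at 60.4, 61.9 and 62.9 CPM at day 8, at 41.6, 42.5 and 42.2 CPM at day 50, and at 11.9, 21.6 and 21.3 CPM at day 65. No library of one age overlapped those of another. Sesn1 was 1.47-fold lower at day 50 than at day 8 (log2 fold change -0.55, SE 0.191; adjusted p = 0.04) and 2.30-fold lower at day 65 than at day 50 (-1.20, SE 0.196; adjusted p = 0.000642). Over the whole interval it fell 3.37-fold (-1.75, SE 0.198; adjusted p = 4.12e-05). The first of these calls ended when any 1 library of day 8 or day 50 was left out, with adjusted p of 0.0513, 0.0869 and 0.128 without day 8 replicate 1, 2 or 3 and of 0.132, 0.129 and 0.137 without day 50 replicate 1, 2 or 3. It also ended with library size as the only scaling (0.0679), with no filter on low counts (0.0678) and on log2(TPM + 1) (0.358), and the later 2 calls held under every alternative run.

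Sesn2 (chr4:132492032-132510501, minus strand), the sestrin whose protein is known as a leucine sensor, was at 10.2, 15.7 and 13.8 CPM at day 8, at 26.9, 36.4 and 37.1 CPM at day 50, and at 69.2, 37.4 and 47.5 CPM at day 65. The ages did not overlap, although the lowest day 65 library was only just above the highest of day 50. Sesn2 was 2.52-fold higher at day 50 than at day 8 (1.33, SE 0.247; adjusted p = 0.00176) and 3.86-fold higher at day 65 than at day 8 (1.95, SE 0.250; adjusted p = 8.95e-05), the latter 1.14 on log2(TPM + 1) and still called. From day 50 to day 65 the log2 fold change was 0.62 (SE 0.239; adjusted p = 0.0488), and on log2(TPM + 1) the sign turned to -0.22. That call passed under 9 of 20 alternatives, and without day 65 replicate 1, the highest library, the value was 0.34 (adjusted p = 0.212). It also ended without day 8 replicate 3 (adjusted p = 0.0606), without day 50 replicate 1, 2 or 3 (0.153, 0.0713 and 0.0719) and without day 65 replicate 3 (0.0691).

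Sesn3 (chr9:14275067-14333101, plus strand) is known in mouse liver as a FOXO1 target. It had the highest CPM of the sestrins at day 8 and day 50, but CPM is not divided by length. Per length Sesn3 was at 27.7, 37.9 and 6.74 TPM at the 3 ages. Sesn1 was at 36.6, 26.8 and 7.27 TPM, and Sesn2 at 6.52, 17.5 and 14.9 TPM. Sesn3 was at 137, 160 and 144 CPM at day 8, 173, 186 and 214 CPM at day 50, and 39.1, 55.5 and 53.5 CPM at day 65. The ages did not overlap. From day 8 to day 50 the log2 fold change of 0.38 (SE 0.157; adjusted p = 0.0785) did not pass. Sesn3 then was 3.87-fold lower at day 65 than at day 50 (-1.95, SE 0.164; adjusted p = 2.76e-05) and 2.98-fold lower than at day 8 (-1.57, SE 0.162; adjusted p = 2.43e-05). With the length and GC trend removed the last 2 values shrank to -1.16 and -0.79, both still called. The mean transcript length that RSEM assigned to Sesn3 was 8667 to 9004 bases at day 8 and 9053 to 9071 bases at day 50. At day 65 it was 7268 to 8119 bases, so by RSEM's estimate shorter transcripts took a larger share. The day 65 libraries also had the lowest mean effective transcript length over all genes, and a change in the transcripts of Sesn3 was not tested.

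Of 10 genes around the sestrins, the GATOR1 and GATOR2 subunits and the catalytic subunits of AMPK, 4 were called from day 8 to day 50 (2 higher, 2 lower), 7 from day 50 to day 65 (4 higher, 3 lower) and 3 from day 8 to day 65 (1 higher, 2 lower), beside 40.8%, 55.9% and 62.3% of all genes. These counts depended on scaling. In the same order they were 2 higher and 5 lower, 5 higher and 1 lower, and 5 higher and 4 lower with the length and GC trend removed. The AMPK gene Prkaa2 was at 13.8 ± 1.90, 42.1 ± 2.18 and 3.71 ± 1.56 CPM (SD, n = 3), higher at day 50 (log2 fold change 1.60, adjusted p = 0.000473) and lower again at day 65 (-3.48, adjusted p = 1.95e-05). Prkaa1, the other AMPK catalytic gene, moved less, with log2 fold changes of 0.49 (adjusted p = 0.026) and -0.49 (adjusted p = 0.0189). The first call of Prkaa1 ended with library size as the only scaling (adjusted p = 0.0824), on log2(TPM + 1) (0.112), without day 8 replicate 1 (0.0594) and without day 50 replicate 3 (0.0555). The GATOR1 gene Nprl2 ran the opposite way to Prkaa2, from 34.4 ± 3.17 to 13.3 ± 1.79 CPM (-1.36, adjusted p = 9.79e-05) and up to 28.2 ± 3.77 CPM (1.08, adjusted p = 0.000347), although on log2(TPM + 1) the latter was 0.07 (adjusted p = 0.829). Mios, a GATOR2 gene, was lower at each step, at 40.2 ± 3.30, 23.3 ± 1.09 and 15.04 ± 2.30 CPM, with log2 fold changes of -0.79 (adjusted p = 0.00171) and -0.63 (adjusted p = 0.00478); with the length and GC trend removed the second was -0.02 (adjusted p = 0.9), and on log2(TPM + 1) the first was not called (-0.58, adjusted p = 0.136). Nprl3 was higher at day 65 than at day 50 (0.80, adjusted p = 0.00139), a direction that turned on log2(TPM + 1) to -0.27, and than at day 8 (1.17, adjusted p = 9.89e-05), a call lost on log2(TPM + 1) (0.24, adjusted p = 0.459).

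Cdkn1b and Gadd45a, which both restrain the cell cycle, moved in opposite directions. Cdkn1b (chr6:134920401-134925513, plus strand) encodes p27, an inhibitor of cyclin-dependent kinases. It was at 201, 226 and 227 CPM at day 8, at 101, 98.0 and 102 CPM at day 50, and at 68.8, 94.4 and 70.8 CPM at day 65. The 3 ages did not overlap. Cdkn1b was 2.17-fold lower at day 50 than at day 8 (-1.12, SE 0.145; adjusted p = 0.000204) and 2.79-fold lower at day 65 than at day 8 (-1.48, SE 0.146; adjusted p = 1.94e-05), and both calls held under all 20 alternatives. The value from day 50 to day 65 was -0.36 (SE 0.144; adjusted p = 0.0524), which did not pass and came to 0.0053 with the length and GC trend removed. The summed oocyte marker level given above was also lower at day 50 and day 65 than at day 8, and from day 8 to day 50 so were 5 of 6 fibroblast markers (summed 1979 to 2517 and 698 to 1313 CPM) and 3 of 5 erythroid markers (981 to 2199 and 194 to 386 CPM). At day 65, 4 of the 6 fibroblast and 5 of the 5 erythroid markers were higher than at day 50. The part of these cells in the fall of Cdkn1b was not tested.

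Gadd45a (chr6:67035096-67037457, minus strand), a stress sensor linked to growth arrest and DNA repair, was at 12.01, 16.5 and 16.8 CPM at day 8, at 32.3, 24.4 and 28.2 CPM at day 50, and at 50.4, 60.5 and 50.4 CPM at day 65. Each age lay wholly above the one before. Gadd45a was 1.87-fold higher at day 50 than at day 8 (0.90, SE 0.171; adjusted p = 0.00201), 1.90-fold higher at day 65 than at day 50 (0.93, SE 0.168; adjusted p = 0.00115) and 3.55-fold higher at day 65 than at day 8 (1.83, SE 0.174; adjusted p = 1.54e-05). The step from day 50 to day 65 was not called on log2(TPM + 1) (0.23, adjusted p = 0.562) or with the length and GC trend removed (0.08, adjusted p = 0.766). With that trend removed the value for day 65 against day 8 was 1.04 (adjusted p = 0.00175). Gadd45a is the shortest of the 10 transcripts, at 830 to 1011 bases. A gene on the opposite strand, E230016M11Rik, covers 19.1% of its exon bases, and reads of the 2 genes cannot be told apart where the counting ignored strand.

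Relatives of these inhibitors were also measured. Of 7 tested relatives of the 10 genes, 5 were called from day 8 to day 50 (4 higher, 1 lower), then 7 of 7 to day 65 (4 higher, 3 lower), and 6 of 7 over the whole interval (3 higher, 3 lower), beside 40.8%, 55.9% and 62.3% of all genes. Cdkn1a, which encodes p21, was at 12.4 ± 2.41, 63.5 ± 11.4 and 127 ± 52.0 CPM (SD, n = 3), and rose from day 8 to day 50 where Cdkn1b fell. Its log2 fold change against day 8 was 2.35 at day 50 (adjusted p = 0.000163) and 3.36 at day 65 (adjusted p = 1.28e-05). On log2(TPM + 1) the values of Cdkn1a against day 8 were 2.44 at day 50 and 2.51 at day 65, close to each other. Cdkn1c, which encodes p57, was at 60.7 ± 9.19, 11.3 ± 2.30 and 27.7 ± 4.93 CPM, lower at day 50 (-2.42, adjusted p = 1.14e-05) and higher again at day 65 (1.29, adjusted p = 0.000407). Gadd45g rose at each step as Gadd45a did, from 9.93 ± 0.280 to 22.3 ± 1.73 and 47.5 ± 9.01 CPM, with log2 fold changes of 1.17 (adjusted p = 0.000276) and 1.09 (adjusted p = 0.000296), the second of which was 0.32 with the length and GC trend removed (adjusted p = 0.0284). Gadd45b was higher at day 50 than at day 8 (0.98, adjusted p = 0.00219). On log2(TPM + 1) the day 50 to day 65 values of Cdkn1c (0.26, adjusted p = 0.429) and Gadd45g (0.26, adjusted p = 0.381) were not called.

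Bcl6 was high at day 50 alone. Bcl6 (chr16:23965052-23988852, minus strand), a zinc finger repressor best known from germinal centre B cells and repressed by PI3K signalling in lymphocytes through loss of FOXO activity, was at 4.75, 7.68 and 6.08 CPM at day 8, at 21.6, 21.96 and 24.0 CPM at day 50, and at 7.38, 5.95 and 6.38 CPM at day 65. The day 8 and day 65 libraries overlapped, and every day 50 library lay far above them. It was 3.64-fold higher at day 50 than at day 8 (1.86, SE 0.206; adjusted p = 7.14e-05) and 3.43-fold lower at day 65 than at day 50 (-1.78, SE 0.206; adjusted p = 0.000106). Both calls held under all 20 alternatives. Day 65 and day 8 did not differ past the test (0.08, SE 0.207; adjusted p = 0.739). The 6 lymphocyte markers summed to 3.49 to 5.79 CPM at day 8, 4.85 to 6.86 CPM at day 50 and 2.24 to 2.70 CPM at day 65, and of the 3 that could be tested none was called from day 8 to day 50. The granulosa markers had the course given above, with the highest sums at day 50. The 6 macrophage markers summed to 97.0 to 222 CPM at day 65, with 2 of 6 lower than at day 50. The 6 theca markers summed to 817 to 1265 CPM at day 65, with 5 of 6 lower than at day 50. The part of granulosa, macrophage and theca cells in the level of Bcl6 was not tested. Its relative Bcl6b was at 5.33 ± 1.89, 7.72 ± 1.52 and 20.3 ± 2.25 CPM, with a different order of ages, and was higher at day 65 than at day 50 (1.40, adjusted p = 0.0014) and than at day 8 (1.94, adjusted p = 0.00015), the first of which was not called on log2(TPM + 1) (0.39, adjusted p = 0.195).

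Irs2, an adaptor that links the insulin and IGF1 receptors to PI3K and that FOXO1 induces in mouse liver, was lower with age. Irs2 (chr8:10984681-11008458, minus strand) was at 19.4, 24.6 and 23.2 CPM at day 8, at 16.9, 15.3 and 19.8 CPM at day 50, and at 10.6, 12.1 and 14.5 CPM at day 65. Day 8 and day 50 overlapped slightly, while all day 65 libraries lay below both. From day 8 to day 50 the log2 fold change was -0.37 (SE 0.175; adjusted p = 0.112), and it passed once the length and GC trend was removed (-0.66, adjusted p = 0.00394). From day 50 to day 65 it was -0.48 (SE 0.177; adjusted p = 0.0405), but 0.02 with the length and GC trend removed (adjusted p = 0.904), and this call passed under 11 of 20 alternatives. It ended without day 8 replicate 2 or 3 (adjusted p = 0.0514 and 0.0636), day 50 replicate 1 or 3 (0.0867 and 0.153), or day 65 replicate 1 or 2 (0.115 and 0.0862). Irs2 was 1.80-fold lower at day 65 than at day 8 (-0.85, SE 0.177; adjusted p = 0.00189), under all 20 alternatives.

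Irs1, the related adaptor, had another course. It was at 42.1 ± 6.77, 98.7 ± 13.5 and 15.6 ± 10.5 CPM (SD, n = 3), higher at day 50 than at day 8 (1.23, SE 0.386; adjusted p = 0.028) and lower at day 65 than at day 50 (-2.67, SE 0.410; adjusted p = 0.000507). The first call was lost without day 8 replicate 1 (adjusted p = 0.0635) or 3 (0.0806) and without day 50 replicate 2 (0.055) or 3 (0.0732). Of Irs1 and the receptor genes Insr, Igf1r and Erbb3, 1 was higher and 1 lower at day 50 than at day 8. At day 65, Irs1, Erbb3 and Insr were lower than at day 50. Irs1, Erbb3 and Igf1r were lower at day 65 than at day 8. With the length and GC trend removed, 2 of these genes were higher and 2 lower at day 65 than at day 50. Against day 8, 1 was then higher and 2 lower, and Irs1 was not called (-0.69, adjusted p = 0.157). Igf1r was at 138 ± 22.3, 44.8 ± 12.7 and 47.4 ± 10.1 CPM, lower at day 50 than at day 8 (-1.62, SE 0.226; adjusted p = 0.000323). Erbb3 was lower at day 65 than at day 50 (-1.65, SE 0.251; adjusted p = 0.000426) and than at day 8 (-1.19, SE 0.251; adjusted p = 0.00203). With the length and GC trend removed these values of Erbb3 were -0.98 (adjusted p = 0.00819) and -0.65 (adjusted p = 0.0442). The call of Erbb3 against day 8 was lost when the replicate number was added as a block to that correction (-0.65, adjusted p = 0.0696). Insr, itself a FOXO target, was lower at day 65 than at day 50 (-0.46, SE 0.159; adjusted p = 0.0289), but higher with the length and GC trend removed (0.41, adjusted p = 0.0391), and the call ended without day 50 replicate 3 (0.115), day 65 replicate 2 (0.0853) or day 65 replicate 3 (0.0876).

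**Figure D3:**
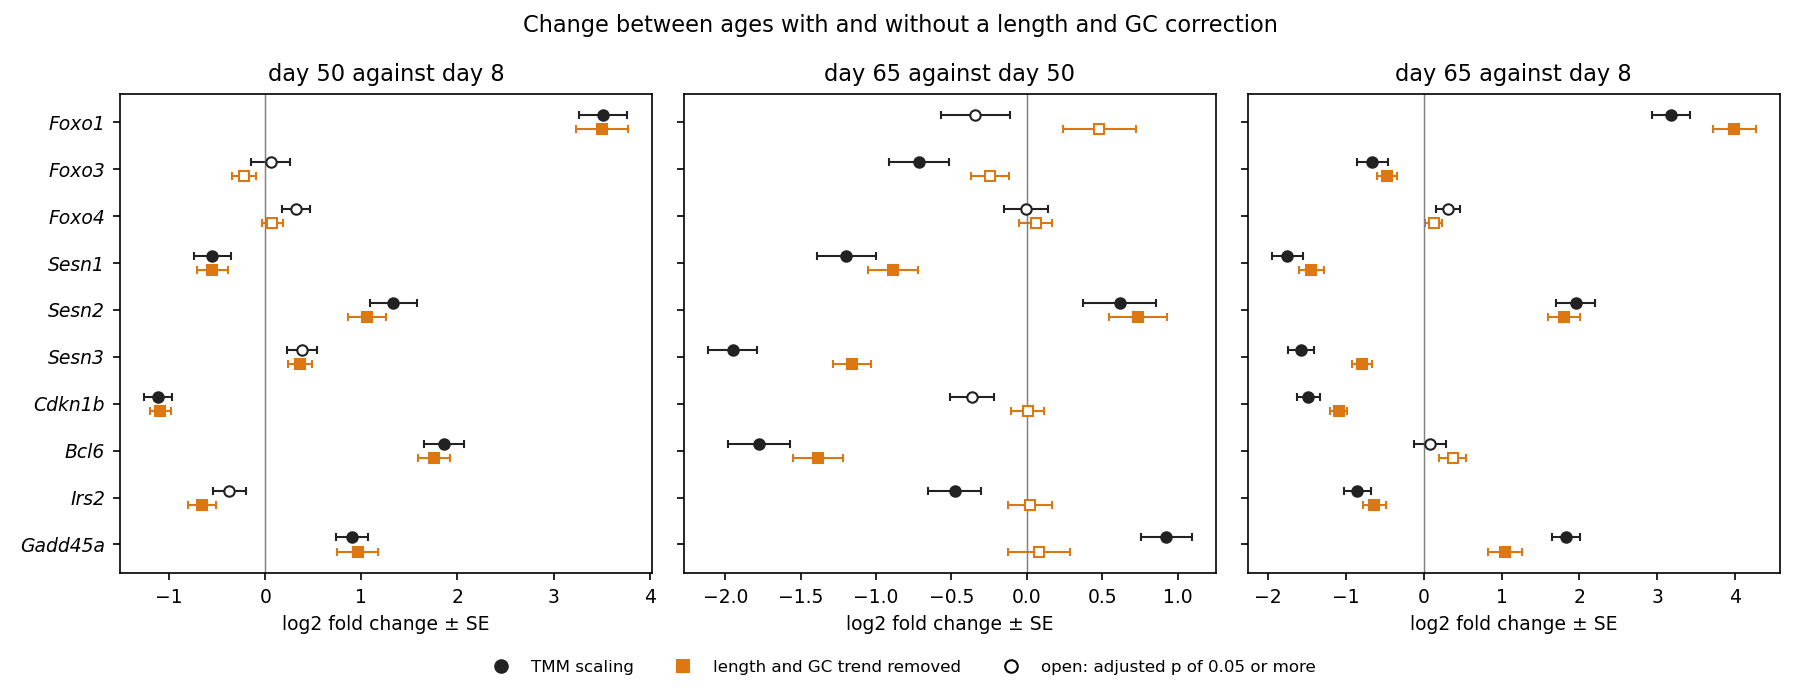
Log2 fold change ± SE (horizontal axis) of each of the 10 genes in the 3 comparisons, with TMM scaling (black circles) and after removal of the length and GC trend (orange squares); filled symbols have an edgeR adjusted p under 0.05. Between day 50 and day 65 Foxo3 (-0.71 and -0.25), Irs2 (-0.48 and 0.02) and Gadd45a (0.93 and 0.08) are called with TMM scaling alone, Foxo1 (-0.34 and 0.48) turns sign without a call, and Sesn1, Sesn3 and Bcl6 are called lower in both.

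A further 30 FOXO target genes, chosen from textbook knowledge with earlier results of these data known, were read as a list, of which 25 were tested. Pck1, G6pc, Fasl, Trim63 and Igfbp1 did not pass the filter on low counts. From day 8 to day 50, 14 of the 25 rose and none fell, where 19.5% and 21.4% of all genes did. From day 50 to day 65, 5 rose and 14 fell, against 27.5% and 28.4% of all genes. Over the whole interval 9 rose and 9 fell, against 29.7% and 32.6%. The medians were 0.67, -0.59 and -0.04, beside the medians of all genes given above. With the length and GC trend removed the counts were 14 higher and 3 lower, 7 higher and 11 lower, and 10 higher and 10 lower.

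The 14 that rose by day 50 did not share one course afterwards. Trp53inp1, a stress-induced autophagy gene, went from 61.1 ± 2.37 to 159 ± 26.8 CPM (SD, n = 3; log2 fold change 1.38, adjusted p = 5.22e-05) and to 103 ± 8.02 CPM at day 65 (-0.63, adjusted p = 0.00403). Pik3ip1, an inhibitor of PI3K, went from 24.5 ± 5.11 to 54.0 ± 3.85 CPM (1.14, adjusted p = 0.000669) and down to 17.3 ± 2.77 CPM (-1.64, adjusted p = 8.82e-05). Txnip, which inhibits thioredoxin and glucose uptake, was at 353 ± 24.2, 654 ± 125 and 227 ± 44.8 CPM, with a fall from day 50 to day 65 of -1.53 (adjusted p = 0.000198). Both of these genes were highest at day 50, as Bcl6 was, but unlike Bcl6 they were also lower at day 65 than at day 8 (Pik3ip1 -0.50, adjusted p = 0.0317; Txnip -0.64, adjusted p = 0.016).

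Of the other targets named here, Bcl2l11, Bbc3 and Tsc22d3 had a higher mean CPM at each later age, and Tnfsf10 did not. Bcl2l11, which encodes the pro-apoptotic protein BIM, was at 18.6 ± 1.93, 34.6 ± 1.31 and 40.5 ± 4.07 CPM (day 50 against day 8, 0.90, adjusted p = 0.000466). Bbc3, which encodes the pro-apoptotic protein PUMA, was at 4.56 ± 0.943, 10.6 ± 1.16 and 24.8 ± 7.30 CPM (day 65 against day 50, 1.23, adjusted p = 0.0017), though it was not called on log2(TPM + 1) (0.60, adjusted p = 0.114). Tsc22d3, a glucocorticoid-induced gene, was at 45.0 ± 4.68, 81.9 ± 14.3 and 139 ± 20.2 CPM (day 65 against day 8, 1.62, adjusted p = 2.62e-05). Tnfsf10, the gene of the death ligand TRAIL, did not pass from day 8 to day 50 and was lower at day 65, at 7.54 ± 1.95, 6.75 ± 1.60 and 0.755 ± 0.268 CPM (day 65 against day 50, -3.15, adjusted p = 0.000109).

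**Figure D4:**
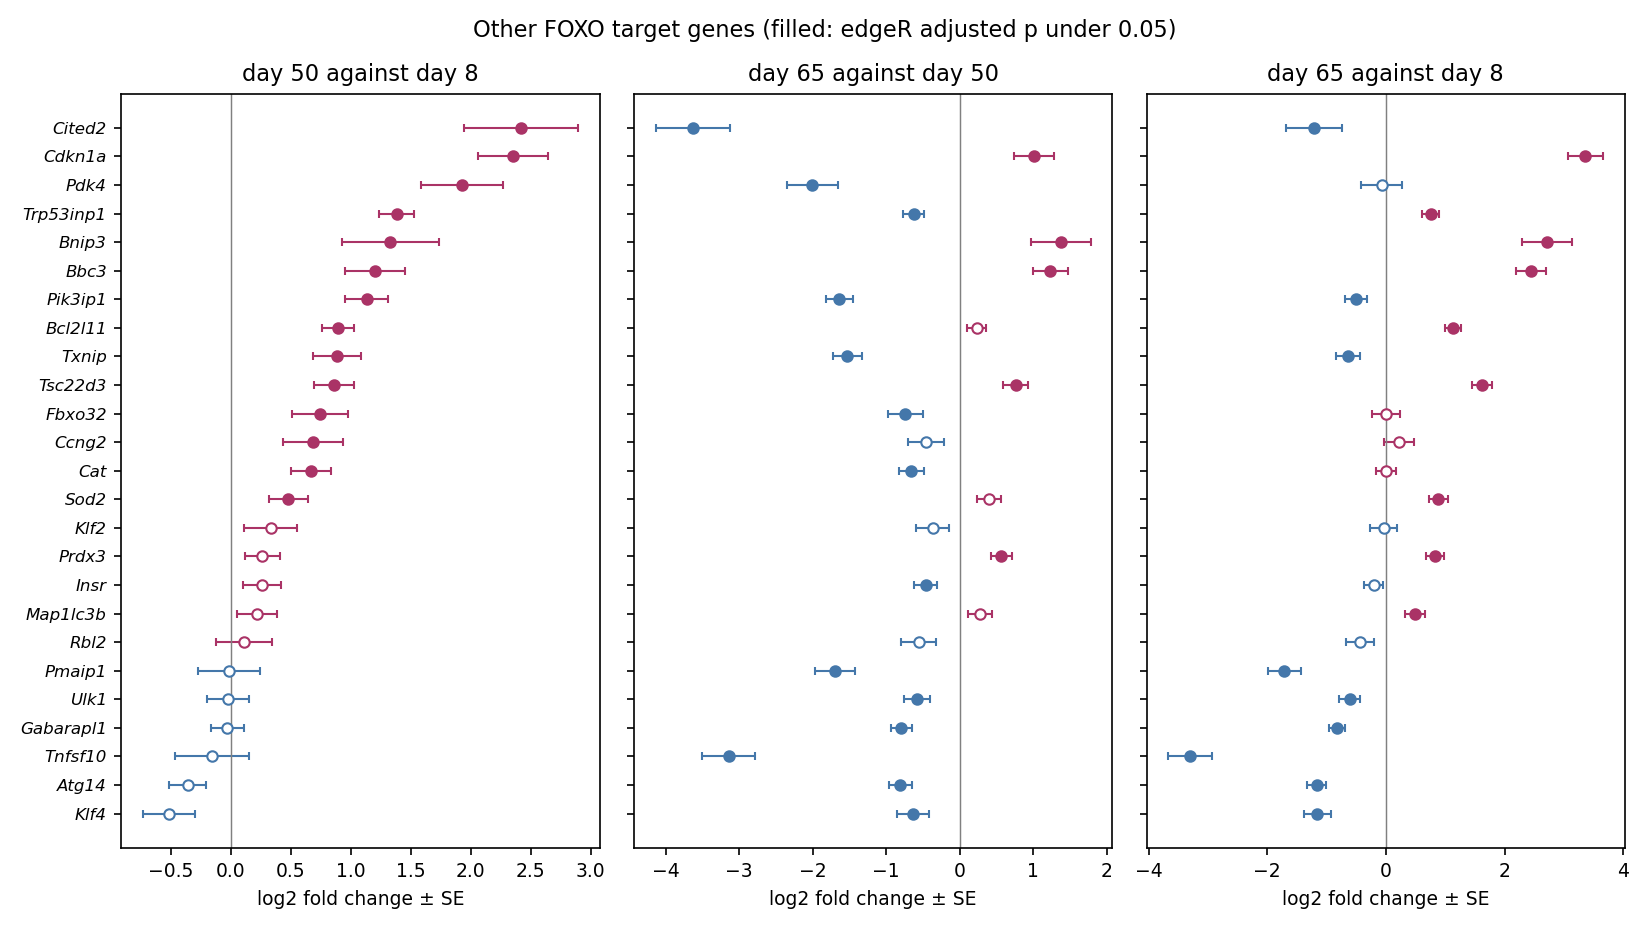
Log2 fold change ± SE (horizontal axis) of the 25 other FOXO target genes that were tested, in the 3 comparisons, ordered by the change from day 8 to day 50; red is higher and blue lower at the later age, and filled symbols have an edgeR adjusted p under 0.05. All 14 filled symbols of the first panel are to the right of 0, and 14 of the 19 in the second are to the left; with the length and GC trend removed 3 genes are called lower in the first comparison and Insr turns to higher in the second.

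Of 24 genes whose products act on FOXO proteins, 6 were called from day 8 to day 50 (2 higher, 4 lower), 11 from day 50 to day 65 (3 higher, 8 lower) and 17 over the whole interval (8 higher, 9 lower), beside 40.8%, 55.9% and 62.3% of all genes. In the same order the counts were 3 higher and 6 lower, 7 higher and 7 lower, and 7 higher and 6 lower with the length and GC trend removed. Sgk3, which encodes a kinase related to AKT, was at 14.6 ± 2.504 CPM (SD, n = 3) at day 8 and lower at day 65, at 3.55 ± 0.948 CPM (-2.02, adjusted p = 5.5e-05). The kinase gene Mapk8 (-0.82, adjusted p = 0.00145) and the deubiquitinase gene Usp7 (-0.65, adjusted p = 0.00684) were lower at day 50 than at day 8, and the 14-3-3 gene Sfn was higher (1.36, adjusted p = 0.00427). On log2(TPM + 1) Mapk8 (adjusted p = 0.107) and Usp7 (0.308) were not called.

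From day 50 to day 65 the acetyltransferase gene Ep300 fell from 138 ± 23.8 to 41.3 ± 0.752 CPM (-1.74, SE 0.170; adjusted p = 4.95e-05), and the deacetylase gene Sirt1 from 32.5 ± 2.05 to 12.02 ± 4.75 CPM (-1.43, SE 0.241; adjusted p = 0.000778). With the length and GC trend removed Ep300 was at -0.85 (adjusted p = 0.000111) and Sirt1 at -0.89 (adjusted p = 0.00293), both still called. The ubiquitin ligase gene Stub1 rose from 94.1 ± 7.32 to 224 ± 22.8 CPM (1.25, SE 0.132; adjusted p = 6.88e-05), and was not called on log2(TPM + 1) (0.44, adjusted p = 0.146). The arginine methyltransferase gene Prmt1 was higher too (0.96, SE 0.176; adjusted p = 0.0012), and was not called with the length and GC trend removed (0.08, adjusted p = 0.503) or on log2(TPM + 1) (0.28, adjusted p = 0.223).

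Per length, the 10 genes stood in a different order at each age. At day 8 Cdkn1b had the highest TPM, 133 ± 37.4 (SD, n = 3), and it was the only gene whose libraries did not overlap those of the next in order, Foxo3 at 36.9 ± 15.3 TPM. From there Sesn1 (36.6 ± 9.48), Gadd45a (27.8 ± 11.4), Sesn3 (27.7 ± 9.14), Foxo1 (16.0 ± 3.56), Foxo4 (13.2 ± 4.82), Sesn2 (6.52 ± 2.75), Irs2 (5.92 ± 2.08) and Bcl6 (2.99 ± 1.33) each overlapped its neighbour. At day 50 Foxo1 was first at 209 ± 21.3 TPM, clear of Cdkn1b (64.8 ± 2.67) and Gadd45a (60.3 ± 15.01), which overlapped. Below them Foxo3 (39.9 ± 3.72) and Sesn3 (37.9 ± 4.82) overlapped, Sesn1 (26.8 ± 0.452) stood apart, Foxo4 (17.9 ± 2.14) and Sesn2 (17.5 ± 3.05) overlapped, and Bcl6 (11.6 ± 0.904) and Irs2 (4.93 ± 0.769) closed the order, each apart. At day 65 Foxo1 (93.0 ± 4.51 TPM), Gadd45a (69.9 ± 11.4) and Cdkn1b (32.1 ± 7.002) came first, each apart from the next. Sesn2 (14.9 ± 2.85), Foxo3 (13.9 ± 2.11), Foxo4 (9.88 ± 1.43), Sesn1 (7.27 ± 3.03) and Sesn3 (6.74 ± 1.95) followed, each overlapping its neighbour, and Irs2 (2.03 ± 0.547) and Bcl6 (1.91 ± 0.104) were last and overlapped.

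Scaling bears on the comparisons with day 65. With TMM scaling 4883 genes were higher and 5033 lower at day 65 than at day 50, and 5267 higher and 5790 lower than at day 8. With library size as the only scaling the median of all genes moved to -0.31 against day 50 and -0.34 against day 8, and the splits were 3407 higher with 6183 lower and 3701 higher with 6946 lower. On log2(TPM + 1) the medians were -0.56 and -0.50, with 1702 higher and 8326 lower against day 50 and 2442 higher and 7934 lower against day 8. Against those medians the values of the 10 genes are relative, and a gene near them has not been shown to stay level. Leaving out day 8 replicate 1, the library that stood apart, gave 5, 8 and 8 of the 10 genes called in the 3 comparisons; Sesn1 was no longer called from day 8 to day 50, and Cdkn1b was from day 50 to day 65 (adjusted p = 0.0327).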

How the data were processed

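Ovary RNA was extracted with a column kit and made into mRNA libraries with a NuGEN kit, per the labels' protocols. The authors deposited 1 table per library with RSEM expected counts, TPM, FPKM and lengths per gene, per the file headers; the builds named in the submitters' processing notes are GRCm38 and mm10. No source used here gives the aligner, the RSEM version or the strand setting. The deposited expected counts were first rounded to integers, then tested with edgeR 4.0.16 (glmQLFit, robust, glmQLFTest, two-sided; R 4.3.3) after filterByExpr and TMM scaling, with all 9 libraries in 1 model and a term per age. Adjusted p-values were taken over all 17747 genes. The deposited TPM values served for levels per length and, as log2(TPM + 1), for an alternative with limma 3.58.1; the deposited FPKM values served only to recompute the FOXO shares. Other alternatives were DESeq2 1.42.0, other scalings and filters, removal of a spline trend (5 degrees of freedom) on transcript length and GC content, the replicate number as a block, and leaving out each library. The scripts were tested on counts simulated for day 50 against day 8, with no trend on length or GC content. There edgeR recovered 57% of 2-fold and 92% of 4-fold changes, with 7 false calls among 17747 genes. DESeq2 recovered 78% and 96%, with 49 false calls.

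The 10 genes, the lists of related genes and the marker lists were chosen with earlier results of these data known. The marker lists were granulosa, oocyte, theca, lymphocyte, macrophage, endothelial, smooth muscle, adipocyte, fibroblast, erythroid and surface epithelium. All 10 genes were described in every library. Of each list of related genes, up to 4 called genes per comparison were named by smallest p, with the smallest p of each direction included, and Foxo6 in any case. Genes like a FOXO factor were the 5 with the highest Pearson r. Some genes that these rules name are not reported here. Coordinates are those of GRCm38, and promoters are from RefSeq (GRCm38.p6).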

Additional observations from a re-analysis of the deposited data

How the results depend on the processing

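Of the 20 alternatives, the 15 calls that held throughout were those of Foxo1, Sesn2, Cdkn1b, Bcl6 and Gadd45a (day 50 against day 8), of Sesn1, Sesn3 and Bcl6 (day 65 against day 50), and of Foxo1, Sesn1, Sesn2, Sesn3, Cdkn1b, Irs2 and Gadd45a (day 65 against day 8). With the length and GC trend removed, with or without a replicate block, 4 of the 10 genes were called from day 50 to day 65 in place of 7, and log2 fold changes turned sign, Foxo1 to 0.48 (0.45 with the block), Foxo4 to 0.0597 (0.0596), Cdkn1b to 0.0053 (0.00012), Irs2 to 0.024 (0.022) and Insr to 0.41 (0.39), and from day 8 to day 50 Foxo3 to -0.23 (-0.22). On log2(TPM + 1) the sign turned for Sesn2 (-0.22) and Nprl3 (-0.27) from day 50 to day 65, and for Foxo4 (-0.32) and Bcl6 (-0.40) from day 8 to day 65; with library size as the only scaling it turned for Bcl6 (-0.22). For Foxo4 from day 50 to day 65 it turned with upper quartile factors (0.0087), with the stricter filter (0.011) and with only the libraries of both ages (0.0017). The cause of these shifts was not tested. Leaving out 1 library gave ranges that crossed 0 for Foxo3 from day 8 to day 50 (-0.095 to 0.23), Foxo4 from day 50 to day 65 (-0.0594 to 0.075) and Bcl6 from day 8 to day 65 (-0.0727 to 0.31), and 5 to 7, 5 to 8 and 7 to 8 of the 10 genes called. Replicate numbers recur across ages, but libraries of the same number did not deviate together (correlations of their deviations between -0.0432 and 0.052). The labels do not give what the number stands for, and these correlations over few libraries cannot show that no batch was shared. With the replicate block 6735, 9368 and 10736 genes were called, and among the 10 genes only the call of Sesn2 from day 50 to day 65 was lost (adjusted p = 0.0776). FOXO shares from FPKM moved by less than 1 SD. Depth limits Bcl6 most, with as few as 64 expected counts in a library.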

Other observations

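Functional subgroups of the other FOXO targets were read after their values were seen, with no test of the subgroups. All values in this section are those with TMM scaling, and no alternative is given for them, although scaling bears on the comparisons with day 65. Among 5 autophagy genes, Gabarapl1, whose product decorates autophagosomes, was at 162 ± 5.74, 159 ± 12.9 and 91.3 ± 14.1 CPM (SD, n = 3) at day 8, day 50 and day 65, lower at day 65 than at day 50 (log2 fold change -0.80, SE 0.141; edgeR adjusted p = 0.000984). The autophagy kinase gene Ulk1 (-0.59, adjusted p = 0.0168) and Atg14 (-0.81, adjusted p = 0.00169) were lower in the same comparison, while Map1lc3b did not pass (0.28, adjusted p = 0.182). Bnip3, a mitophagy receptor gene also known as a hypoxia response gene, went the other way, at 39.6 ± 22.4, 99.4 ± 5.98 and 258 ± 107 CPM, higher at day 65 than at day 50 (1.38, SE 0.403; adjusted p = 0.0152).

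The antioxidant enzyme genes did not move together. Cat, the catalase gene, was at 80.8 ± 16.8, 129 ± 8.26 and 81.2 ± 10.7 CPM, highest at day 50 (0.67 against day 8, adjusted p = 0.0099; -0.66 at day 65 against day 50, adjusted p = 0.00748). Prdx3, a mitochondrial peroxiredoxin gene, was at 74.6 ± 13.6, 89.5 ± 6.25 and 132 ± 5.37 CPM, higher at day 65 than at day 50 (0.57, SE 0.146; adjusted p = 0.00767). Sod2, the mitochondrial superoxide dismutase gene, was higher at day 65 than at day 8 (0.88, SE 0.163; adjusted p = 0.000885). Pdk4, which restrains glucose oxidation, and Cited2, a transcriptional coregulator, were highest at day 50, as Bcl6 was. Pdk4 was at 3.22 ± 1.26, 12.2 ± 1.32 and 3.02 ± 1.19 CPM, and Cited2 at 39.3 ± 2.85, 211 ± 18.8 and 16.9 ± 11.8 CPM.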
